A study of Danio rerio with 3 samples.

Results

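The slc25 genes encode the mitochondrial solute carriers, and they were taken as the rows of the deposited count matrix whose gene name starts with slc25 and whose mean over the libraries is at least 10 counts. Of 56 such rows among 32520 gene rows, 51 reached this mean and are described here, out of 18966 genes that reached it in all. These 51 genes carry 41 carrier numbers, since several carriers have an a and a b copy in zebrafish. RNA of whole zebrafish embryos (Danio rerio, strain Tubingen) at 36 hours post fertilization (hpf) was sequenced in 3 libraries, with 1 library per genotype. The library labelled HO came from setd2-/- embryos, the library labelled HE from setd2+/- embryos and the library labelled WT from wild type embryos. Setd2 is the methyltransferase that places trimethylation on lysine 36 of histone H3. The study describes the embryos as littermates and asked at this stage which transcripts differ before the smaller body size of the mutants appears. Because littermates of the 3 genotypes come from heterozygous parents, the eggs of all groups had a mother with a working setd2 copy. Which mutant line was used is not in the labels, and the number of embryos per library is not given in the sources used here.

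Members of this family sit mostly in the inner mitochondrial membrane, where each moves a particular metabolite between the cytosol and the matrix. They are made in the cytosol, pass the outer membrane through the TOM complex, are escorted by small TIM chaperones and enter the inner membrane at the carrier translocase. Through them the matrix receives ADP, phosphate, fatty acids, amino acids, cofactors and iron, and releases ATP and citrate. Embryos at this stage live on yolk and have beating hearts, contracting trunk muscle and circulating primitive erythrocytes, all of which rely on mitochondrial exchange.

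Total counts were 14160325 for HO, 12760683 for HE and 13340950 for WT. Counts were scaled with edgeR's TMM factors and compared as log2 ratios of CPM, the counts relative to the scaled library total. Each ratio has a 95% interval from the exact binomial share of the 2 libraries, and a gene is called higher or lower where this interval excludes 0. Such intervals cover counting error only. They compare libraries and not genotypes, and no difference below has a replicate check. Counts of setd2 were 2087, 1380 and 1348 in the libraries labelled HO, HE and WT, with a log2 ratio of 0.55 (0.45 to 0.65) for HO against WT. The targeted transcript was thus most abundant in the HO library. The paper names E3fs1, a frame-shift line, as its default mutant for the sections that include this RNA sequencing. In homozygotes of that line at a later age it reported a strong decrease of the setd2 transcript. The HO value runs the opposite way, which goes against the label if these embryos were E3fs1. For E19fs1, another frame-shift line, the paper reported no change of the transcript at that later age, and the HO value lies above that as well. The labels name no line, and the difference was not settled. Every direction below, whether written HO, HE or WT, is that of the library labelled so and rests on the labels alone. As the label of whole body requires, markers of several tissues were present in all libraries. Muscle markers summed to 11725, 12516 and 12481 CPM and erythroid markers to 3959, 4179 and 3234 CPM in the libraries labelled HO, HE and WT. Yolk syncytial layer and liver markers summed to 18184, 15480 and 17258 CPM over 4 genes. The other members of that list, ttr and fabp10a, had at most 2 counts.

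The slc25 genes took 0.513% (Clopper-Pearson 95% interval 0.510 to 0.517) of all counts in the library labelled HO, 0.541% (0.537 to 0.545) in HE and 0.524% (0.520 to 0.528) in WT. The share was thus highest in HE and lowest in HO, by steps that exceed counting error. Most of it came from one gene. Per exonic length, as the deposited FPKM (fragments relative to exonic length and to the library total), slc25a5 (ENSDARG00000092553), an ADP/ATP translocase that exchanges cytosolic ADP for matrix ATP, stood at 2297, 2408 and 2328 FPKM in the libraries labelled HO, HE and WT. It held 73.2%, 72.9% and 72.5% of the summed FPKM of the family in HO, HE and WT. Together with the phosphate carrier slc25a3b and the second ADP/ATP translocase slc25a4 it held 85.7%, 85.6% and 85.8%, so that the carriers that feed ATP synthase and export its product outweighed all others in every library.

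Below these, levels dropped quickly. The copy slc25a55a, for which no role is given here, stood at 90.7, 96.4 and 82.8 FPKM in HO, HE and WT. The carnitine/acylcarnitine carrier slc25a20, which brings fatty acyl groups in for oxidation, stood at 55.6, 62.1 and 59.7 FPKM. The oxoglutarate/malate carrier slc25a11 and the aspartate/glutamate carrier slc25a12, both parts of the malate-aspartate shuttle that passes reducing equivalents into the matrix, followed at 45.6, 49.8 and 42.4 FPKM and at 26.1, 28.1 and 27.3 FPKM. The leading 9 genes, down to slc25a39 and slc25a33, were in the same order in all 3 libraries, and for the leading 7 the range over the libraries did not overlap that of the next gene. From slc25a39 (17.1, 19.4 and 19.9 FPKM in HO, HE and WT) downwards, neighbours were close and their ranges could overlap. Mean levels were under 1 FPKM in 4 genes, between 1 and 5 in 21, between 5 and 20 in 19, between 20 and 100 in 4 and over 100 in 3. The median slc25 gene, at 5.02 FPKM, lay close to the median of all genes tested, at 5.19 FPKM.

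**Figure D1:**
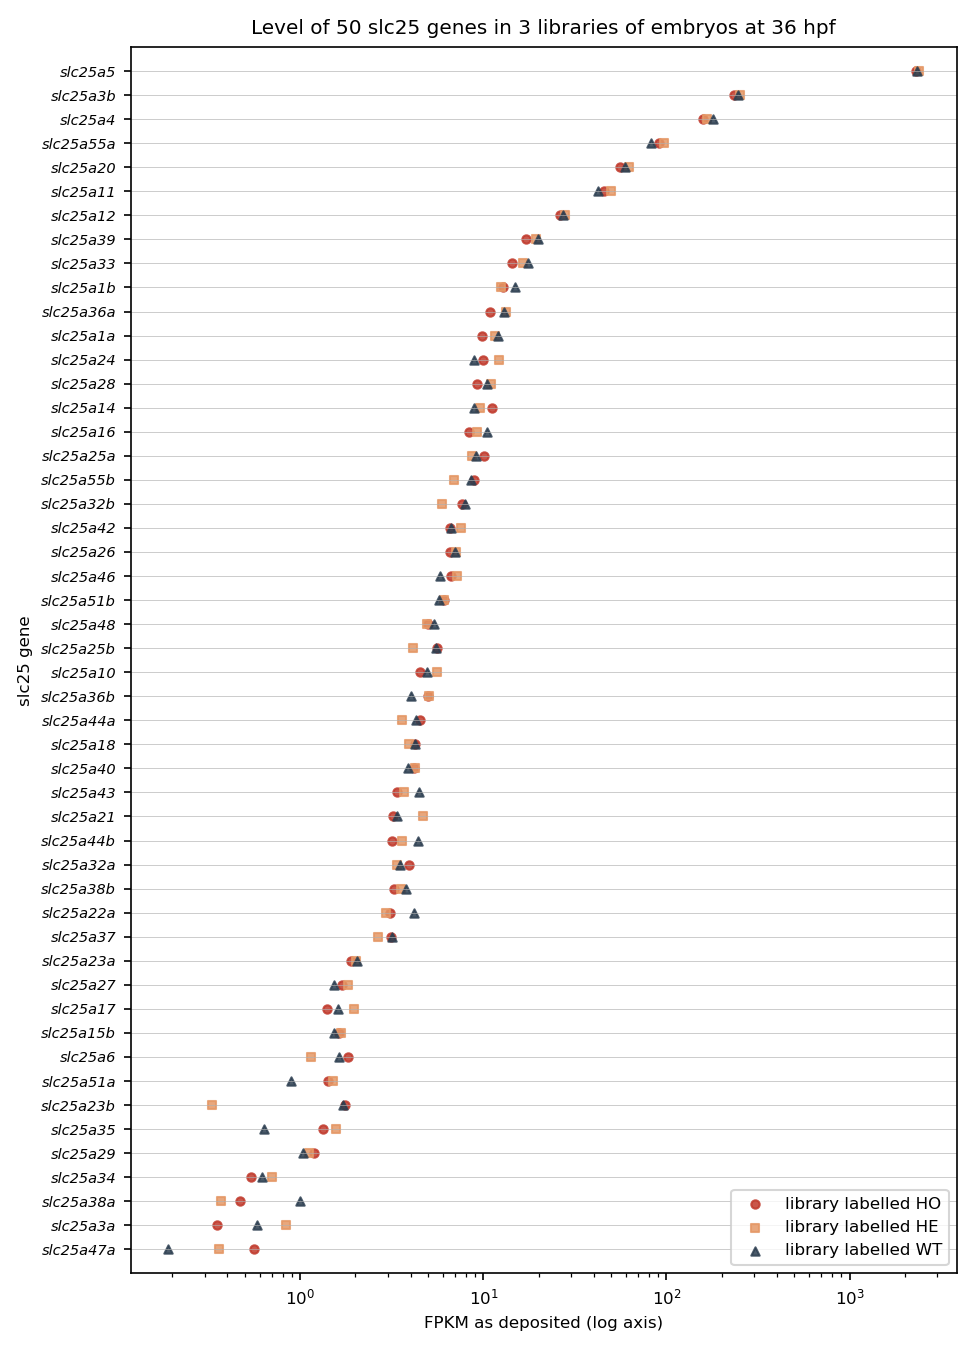
FPKM as deposited on a log axis for 50 of the 51 slc25 genes, ordered by their mean, with 1 point for each of the libraries labelled HO, HE and WT and no error bar because each genotype has 1 library. slc25a5 stood near 2300 FPKM in every library, and the clearest single departure is slc25a23b, at 0.33 FPKM in HE against 1.76 in HO and 1.71 in WT.

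Set against WT, the library labelled HO had a family median near 0, while its well-measured members were more often lower. The median log2 ratio of the 51 genes was −0.02, with 22 higher and 29 lower by sign, beside a median of −0.0044 over all genes tested. The intervals lay above 0 for 4 slc25 genes (slc25a14, slc25a36b, slc25a47a and slc25a55a), or 7.84%, beside 11.8% of all genes. They lay below 0 for 9 (slc25a1a, slc25a1b, slc25a3b, slc25a4, slc25a16, slc25a33, slc25a36a, slc25a39 and slc25a44b), or 17.6%, beside 11.6% of all genes. By size, 3 slc25 genes had a log2 ratio of at least 0.5 (slc25a35, slc25a47a and slc25a51a) and 2 of at most −0.5 (slc25a3a and slc25a38a). Those are 5.88% and 3.92% of the family, beside 5.09% and 6.76% of all genes, and all of these had a mean of at most 23.0 counts. Among genes averaging 100 counts or more, 22 of 34 slc25 genes were lower by sign and 9 beyond counting error, or 26.5%, beside 13.4% of all genes at that depth.

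In HE against WT the median was 0.06, with 28 genes higher and 23 lower by sign, beside 0.0065 over all genes. Here 9 slc25 genes were higher beyond counting error, or 17.6%, beside 13.1% of all genes, and 5 were lower, or 9.80%, beside 12.3%. The 9 were slc25a3b, slc25a5, slc25a11, slc25a21, slc25a24, slc25a35, slc25a36b, slc25a46 and slc25a55a, and the 5 were slc25a1b, slc25a4, slc25a23b, slc25a32b and slc25a38a. A log2 ratio of at least 0.5 was seen for 3 genes (slc25a35, slc25a47a and slc25a51a), beside 5.36% of all genes, and of at most −0.5 for 2 (slc25a23b and slc25a38a), beside 8.25%.

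The most calls came between the libraries labelled HO and HE, and 8 of the 16 lower calls ended when the trend over exonic length was removed. Before that step, the median log2 ratio was −0.11, with 18 genes higher and 33 lower by sign, beside −0.0092 over all genes. Beyond counting error 16 slc25 genes were lower in HO, or 31.4%, beside 15.2% of all genes, and 5 were higher (slc25a14, slc25a23b, slc25a25a, slc25a25b and slc25a55b), or 9.80%, beside 13.8%. Log2 ratios of at least 0.5 numbered 3 (slc25a6, slc25a23b and slc25a47a), beside 7.65% of all genes, and those of at most −0.5 numbered 3 (slc25a3a, slc25a17 and slc25a21), beside 6.72%. Well-measured genes are called more often, so the same was counted at an average of 100 counts or more, where 14 of 34 slc25 genes were lower in HO, or 41.2%, beside 19.1% of 12017 genes. The size of these differences was small, since none of the 34 reached a log2 ratio of 0.5 in either direction in any of the 3 comparisons. The comparisons share libraries, so a high value in HE enters both HE against WT and HO against HE. HE held the highest level in 25 of 51 slc25 genes, or 49.0%, beside 36.3% of all genes, and HO the lowest in 22, or 43.1%, beside 35.0%. These positions were counted only with the length trend kept. Markers of the hatching gland, a transient gland of the embryo, were also high in HE. They summed to 863, 1319 and 992 CPM in HO, HE and WT, and all 3 rows were lower in HO against HE and higher in HE against WT beyond counting error, with medians of −0.57 and 0.42. Their part in the slc25 values was not tested.

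**Figure D2:**
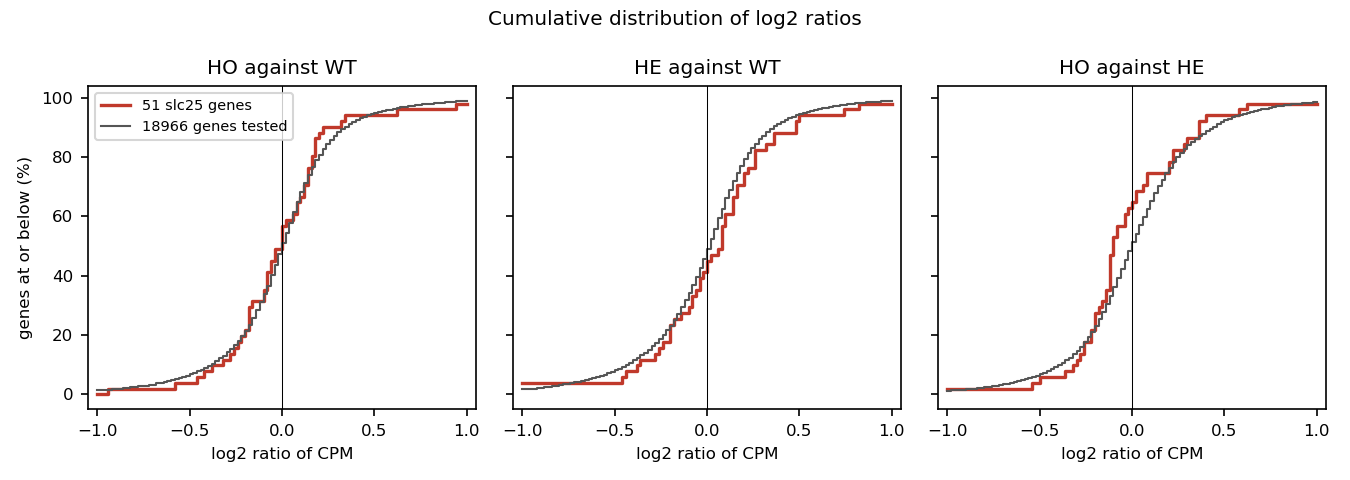
Cumulative share of genes (%) at or below each log2 ratio of CPM for HO against WT, HE against WT and HO against HE, with the 51 slc25 genes in red and the 18966 genes tested in grey. For HO against WT the red line lies below the grey one at −0.5 (3.92% against 6.76%) and above it at 0 (56.9% against 50.9%). At 0.22 the values are 90.2% against 82.8%. For HO against HE the red line lies above the grey one around 0, as the medians of −0.11 and −0.0092 give.

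The ratios of HO against HE moved with exonic length across all genes. With all genes divided by exonic length into 5 classes of nearly equal number, their median was −0.10 in the shortest class and 0.09 in the longest, and slc25 genes are short, with a median of 1964 bases against 2490 bases over all genes. In these 5 length classes from short to long, which hold 10, 18, 10, 10 and 3 slc25 genes, the slc25 medians were −0.10, −0.12, −0.13, −0.08 and −0.12. The medians of all genes in the same classes were −0.10, −0.06, −0.03, 0.01 and 0.09. After the median of genes of like length was taken off, the median of the family was −0.05, with 32 of 51 genes still lower by sign. With each interval moved by the same amount, 8 slc25 genes were lower beyond counting error (slc25a3b, slc25a10, slc25a17, slc25a21, slc25a24, slc25a28, slc25a36a and slc25a55a), or 15.7%, beside 13.3% of all genes. The share in the family was then close to that of all genes. At an average of 100 counts or more it was 6 of 34, or 17.6%, beside 16.8%. The 5 higher genes of the 51 were then slc25a23b, slc25a25a, slc25a25b, slc25a32b and slc25a55b, without slc25a14. That is 9.8%, beside 12.9% of all genes. In HO against WT the same step left 8 of 9 lower calls, without slc25a1b, or 15.7%, beside 10.9% of all genes. It gave 5 higher calls there, with slc25a11 added, or 9.8%, beside 11.5%. In HE against WT it gave 8 higher and 8 lower genes, or 15.7% each, beside 12.3% and 12.2%.

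The 7 genes averaging 1000 counts or more have the narrowest intervals. With the length trend kept, all of these were lower beyond counting error in HO against HE, or 100%, beside 32.2% of the 2502 genes tested at that depth, of which 25.8% were higher. With the length trend removed, only slc25a3b and slc25a55a of the 7 stayed lower, or 28.6%, beside 29.2%. slc25a5 had 46034, 43488 and 43948 counts in HO, HE and WT. Its log2 ratio was −0.09 (−0.11 to −0.07) for HO against HE and 0.08 (0.06 to 0.09) for HE against WT, while HO and WT differed by less than counting error at −0.01. slc25a3b had 7644, 7465 and 7621 counts and a ratio of −0.14 (−0.18 to −0.09) for HO against HE. These are small differences in genes at very high level. In HO and HE, slc25a5 stood at 3237 and 3447 CPM and slc25a3b at 538 and 592 CPM. Removal of the length trend left −0.01 for slc25a5 and −0.02 for slc25a4 in HO against HE, and between −0.11 and −0.09 for the other 5. For slc25a5 in HE against WT it left 0.03, and scaling by total counts gave 0.05, both below the interval given above.

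Among the ADP/ATP translocases, slc25a4 moved like slc25a5 in HO against HE but not in the comparisons with WT. In mammals the slc25a4 product is the translocase of heart and skeletal muscle, and that of slc25a5 the one of dividing cells. slc25a4 had 3213, 3054 and 3449 counts in HO, HE and WT, or 158, 167 and 180 FPKM, and was highest in WT. Its log2 ratio was −0.18 (−0.25 to −0.11) for HO against WT and −0.08 (−0.16 to −0.01) for HE against WT. For HO against HE it was −0.10 (−0.17 to −0.03) with the length trend kept, near the −0.09 of slc25a5. Of the 7 rows of skeletal muscle markers, 6 were lower by sign in HO against WT, 5 of them beyond counting error (11.6% of all genes were), with a median log2 ratio of −0.18. The remaining row, tnni2a.4, was higher, at 0.10 (0.07 to 0.13). For HE against WT 5 rows were lower by sign, 4 of them beyond counting error (12.3% of all genes were), and 2 were higher beyond it. The median was −0.11. For HO against HE 4 rows were higher and 3 lower by sign, with a median of 0.02. Beyond counting error 2 were higher and 3 lower there, beside 13.8% and 15.2% of all genes. Of all genes averaging 1000 counts or more, 21.3%, 18.0% and 32.2% were lower in HO against WT, HE against WT and HO against HE. In HO against WT all 4 heart markers were lower by sign, 2 of them beyond counting error, with a median of −0.32. For HE against WT 3 were, 1 of them beyond it. For HO against HE 3 were lower by sign, 1 of them beyond counting error, with a median of −0.06. The heart markers summed to 84.4, 92.5 and 100.9 CPM in HO, HE and WT. Fewer muscle cells and less RNA per cell cannot be told apart in whole embryos, and the part of muscle and heart in the slc25a4 values was not tested. The remaining translocase, slc25a6, was barely present with 32, 18 and 27 counts in HO, HE and WT, and its intervals included 0 throughout.

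**Figure D3:**
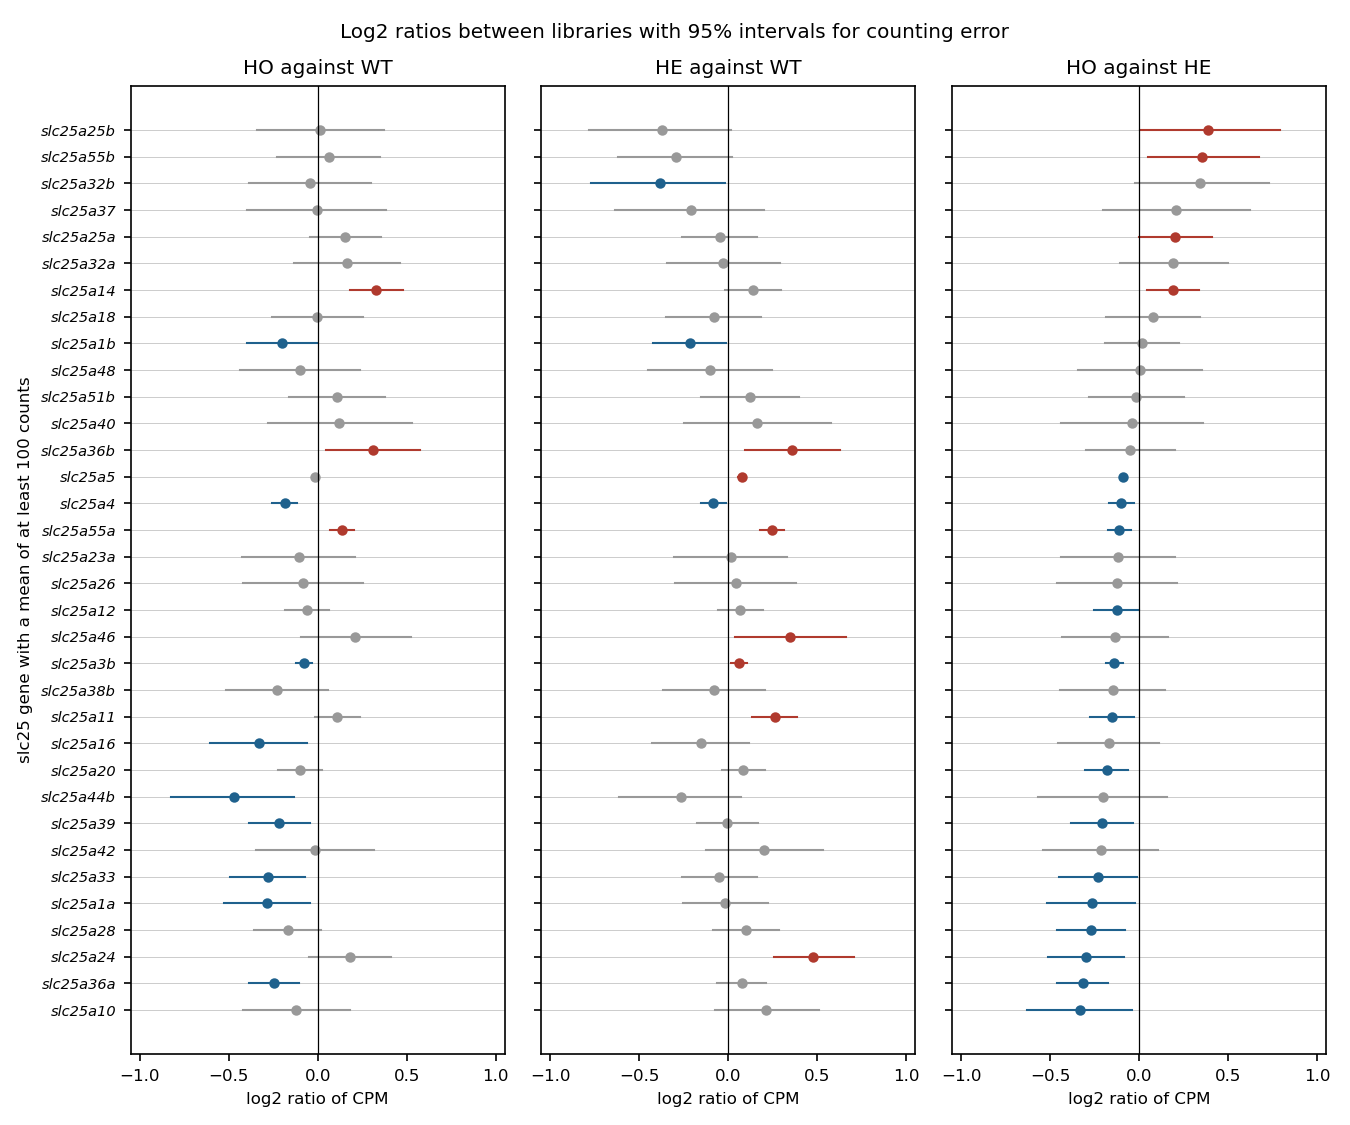
Log2 ratio of CPM (points) with its 95% counting interval (lines) for the 34 slc25 genes averaging 100 counts or more, in HO against WT, HE against WT and HO against HE. Red marks intervals above 0, blue intervals below 0 and grey intervals that include 0, and blue is most frequent in HO against HE, with 14 genes, of which 6 stayed lower once the trend over exonic length was removed.

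The other nucleotide carriers gave mixed values. slc25a24, slc25a23 and slc25a25 products exchange ATP-Mg for phosphate and are switched on by cytosolic calcium. slc25a24 was highest in HE, with 349, 381 and 291 counts in HO, HE and WT and a log2 ratio of 0.48 (0.26 to 0.70) for HE against WT. Both slc25a25 copies were lowest in HE instead. slc25a25a had 461, 355 and 391 counts in HO, HE and WT, and slc25a25b had 138, 93 and 129, with ratios of 0.20 and 0.39 for HO against HE, the lower bounds of which were just over 0.

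The largest ratio of the family belonged to slc25a23b. It had 36 counts in HO, 6 in HE and 33 in WT, so HE stood apart from both others. Its log2 ratio was −2.06 (−3.91 to −1.10) for HE against WT and 2.10 (1.15 to 3.95) for HO against HE. The a copy did not share this, with 167, 161 and 170 counts in HO, HE and WT. With 6 counts the size of the ratio is loosely fixed, as its interval shows.

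The pyrimidine nucleotide carriers supply the matrix with the building blocks of mitochondrial RNA and DNA. slc25a33 had 345, 359 and 396 counts in HO, HE and WT and was lower in HO against WT by a log2 ratio of −0.28 (−0.49 to −0.07). The copies of slc25a36 went opposite ways. slc25a36a had 776, 858 and 868 counts in HO, HE and WT, with −0.24 (−0.38 to −0.10) for HO against WT, whereas slc25a36b had 281, 258 and 214 counts, with 0.31 (0.05 to 0.57). Their sum hides this, since the 2 copies added together gave a ratio of −0.12 for HO against WT.

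Of the 6 carboxylate and fatty acid carriers, 5 were lower beyond counting error in HO against HE, beside 15.2% of all genes, with a median log2 ratio of −0.22. With the length trend removed 2 stayed lower, slc25a10 and slc25a21, or 33.3%, beside 13.3% of all genes, and the median was −0.16. Before that removal the same group had a median of 0.15 for HE against WT. slc25a20 had 1097, 1105 and 1110 counts in HO, HE and WT, a ratio of −0.18 (−0.31 to −0.06) for HO against HE. slc25a11 had 1076, 1059 and 942 counts, with −0.15 (−0.27 to −0.03) for HO against HE and 0.26 (0.13 to 0.39) for HE against WT. HE was the high library in both, although for slc25a20 HE against WT was within counting error at 0.08 (−0.04 to 0.21). The dicarboxylate carrier slc25a10, which exchanges malate or succinate for phosphate, had 185, 207 and 190 counts and a ratio of −0.33 (−0.63 to −0.04) for HO against HE.

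slc25a21, the oxodicarboxylate carrier used in lysine and tryptophan breakdown, showed the strongest such pattern among genes averaging 50 counts or more. It had 89, 116 and 88 counts in HO, HE and WT, so HO and WT were alike and HE stood above both. The ratios were −0.54 (−0.97 to −0.14) for HO against HE and 0.48 (0.08 to 0.91) for HE against WT. The citrate carrier, which exports citrate for fatty acid synthesis, was highest in WT in both copies. slc25a1a had 265, 283 and 305 counts in HO, HE and WT, with −0.28 (−0.53 to −0.04) for HO against WT. For HE against WT it was within counting error at −0.02 (−0.26 to 0.22). slc25a1b had 408, 358 and 443 counts and was lower in both HO and HE against WT.

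The amino acid carriers showed few differences beyond counting error. slc25a12 had 1066, 1032 and 1049 counts in HO, HE and WT, and its ratio of −0.13 for HO against HE only just excluded 0. The carrier slc25a44b, whose mammalian counterpart takes branched-chain amino acids into mitochondria, had 127, 130 and 167 counts in HO, HE and WT and a ratio of −0.47 (−0.82 to −0.14) for HO against WT. Its copy slc25a44a had 84, 61 and 76 counts, within counting error. The glutamate carrier slc25a22a had 64, 55 and 82 counts in HO, HE and WT, with an interval of −0.93 to 0.05 for HO against WT. The other glutamate carrier slc25a18, the ornithine carrier slc25a15b of the urea cycle and the basic amino acid carrier slc25a29 had log2 ratios between −0.08 and 0.19 in all comparisons, and all were within counting error.

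Glycine and iron carriers feed heme synthesis, and in zebrafish loss of slc25a37 (mitoferrin) causes anemia. slc25a37 had 116, 89 and 110 counts in HO, HE and WT, and its intervals included 0 in each comparison. Its wider-expressed relative slc25a28 had 446, 477 and 474 counts, with −0.27 (−0.46 to −0.08) for HO against HE. The glycine carrier copy slc25a38b had 195, 192 and 216 counts in HO, HE and WT, within counting error, and the rare copy slc25a38a had 10, 7 and 20 counts, with −1.22 (−2.91 to −0.12) for HE against WT. Most erythroid markers were higher in both HO and HE than in WT, and their part in the values of these carriers was not tested. Of 8 erythroid markers, 7 were higher by sign in HO against WT and 6 in HE against WT. In each comparison 6 were higher beyond counting error, beside 11.8% and 13.1% of all genes. The marker gata1a was lower by sign in both, and alas2 in HE against WT, within counting error. In HO against HE 5 of the 8 erythroid markers were higher and 3 lower by sign, with a median of 0.06. Beyond counting error 4 were higher and 2 lower there, beside 13.8% and 15.2% of all genes.

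Among the cofactor carriers, slc25a39, whose mammalian counterpart brings glutathione into mitochondria, had 537, 551 and 589 counts in HO, HE and WT. It was lower in HO by a log2 ratio of −0.21 against WT and of −0.21 against HE, both beyond counting error, the second only before removal of the length trend. Its relative slc25a40 had 113, 103 and 98 counts and did not differ beyond counting error. slc25a16, linked to coenzyme A in the matrix, had 208, 208 and 247 counts in HO, HE and WT, with −0.33 (−0.60 to −0.06) for HO against WT, while slc25a42, a coenzyme A carrier, had 158, 163 and 151. The peroxisomal carrier slc25a17 had 68, 87 and 74 counts and a ratio of −0.51 (−1.01 to −0.05) for HO against HE. HE was again the high library, but HE against WT was within counting error at 0.32 (−0.14 to 0.79).

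The folate carrier copy slc25a32b ran the other way, with 148, 103 and 144 counts in HO, HE and WT and −0.39 (−0.77 to −0.02) for HE against WT. Counts of the other copy, slc25a32a, were 209, 162 and 176. The S-adenosylmethionine carrier slc25a26 hardly varied, at 150, 145 and 150 counts, and the NAD carrier copy slc25a51b had 251, 225 and 220. The rare NAD carrier copy slc25a51a had 27, 26 and 16 counts in HO, HE and WT, and its ratio of 0.61 for HO against WT had an interval that included 0.

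slc25a14, related to the uncoupling proteins and enriched in brain in mammals, was the best-measured gene that was higher in HO than in both other libraries. It had 861, 669 and 647 counts in HO, HE and WT. The log2 ratio was 0.33 (0.18 to 0.48) for HO against WT and 0.19 (0.04 to 0.34) for HO against HE, where the call ended with the length trend removed. Neuron markers summed to 1560, 1477 and 1465 CPM in the same libraries. All 5 were higher by sign in HO against WT, 2 of them beyond counting error (11.8% of all genes were). In HO against HE 3 were higher and 2 lower by sign, and 1, elavl3, was higher beyond counting error (13.8% of all genes were). Of all genes averaging 100 counts or more, 15.2% were higher in HO against WT and 16.8% in HO against HE. The part of neurons in the slc25a14 values was not tested. The related slc25a27 had 35, 34 and 30 counts, within counting error. The classical uncoupling proteins, which belong to the family but carry other symbols, were mixed. ucp2 had 2456, 2660 and 2947 counts in HO, HE and WT and a ratio of −0.34 (−0.42 to −0.27) for HO against WT. ucp1 was lower as well, at −0.45 (−0.66 to −0.26), whereas the rarer ucp3, with 50, 31 and 25 counts, was higher, at 0.87 (0.20 to 1.67).

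Carriers without a settled substrate were mostly low. slc25a46, an outer membrane member that takes part in mitochondrial dynamics, had 194, 189 and 158 counts in HO, HE and WT and was higher in HE against WT by 0.35 (0.04 to 0.66). slc25a47a, whose mammalian counterpart is a liver carrier, had 31, 18 and 10 counts, so HO was highest and WT lowest. Its log2 ratio of 1.38 (0.48 to 2.74) for HO against WT was the only one of at least 0.5 in that comparison with an interval that excluded 0. slc25a35 had 18, 19 and 8 counts in HO, HE and WT, with 1.15 (0.08 to 2.74) for HE against WT. slc25a43, slc25a48 and slc25a34 stayed within counting error in all comparisons.

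Where a carrier number has 2 copies, the lead of one copy per exonic length ran from slight to near complete. The a copy held 43.3%, 48.2% and 44.7% of the FPKM of both for slc25a1 in HO, HE and WT. For slc25a55 it held 91.0%, 93.3% and 90.6%. Both copies were measured for 10 carrier numbers, and the copy with the higher FPKM was the same in all 3 libraries for 9 of these. The exception was slc25a44, where the a copy held 58.6%, 50.1% and 49.3% of the FPKM of both in HO, HE and WT. The share moved beyond counting error between some pair of libraries for 4 numbers. For slc25a23 the a copy took 82.3% (76.3 to 87.3) of the counts of both in HO, 96.4% (92.3 to 98.7) in HE and 83.7% (77.9 to 88.5) in WT. The a copy is the longer one, with 6252 bases against 1446. Its share of the FPKM of both was 51.8%, 86.0% and 54.4% in HO, HE and WT. For slc25a36 the a copy took 73.4% (70.6 to 76.1) in HO, 76.9% (74.3 to 79.3) in HE and 80.2% (77.7 to 82.6) in WT, which differed beyond counting error between HO and WT.

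The other shifts were small. slc25a55a took 95.1%, 96.4% and 94.8% of its pair in HO, HE and WT, and slc25a38a took 4.88%, 3.52% and 8.47%, with HE apart from WT in both. In the slc25a55 pair the copies again went opposite ways. slc25a55a had 4063, 3891 and 3493 counts, with −0.11 (−0.17 to −0.05) for HO against HE, and slc25a55b had 211, 146 and 191, with 0.35 (0.05 to 0.67). For the phosphate carrier the a copy was almost absent, with 7, 15 and 11 counts in HO, HE and WT against 7644, 7465 and 7621 for the b copy. Reads that match both copies of a pair could have been split or dropped in the counting, so these shares are uncertain where copies are near-identical.

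**Figure D4:**
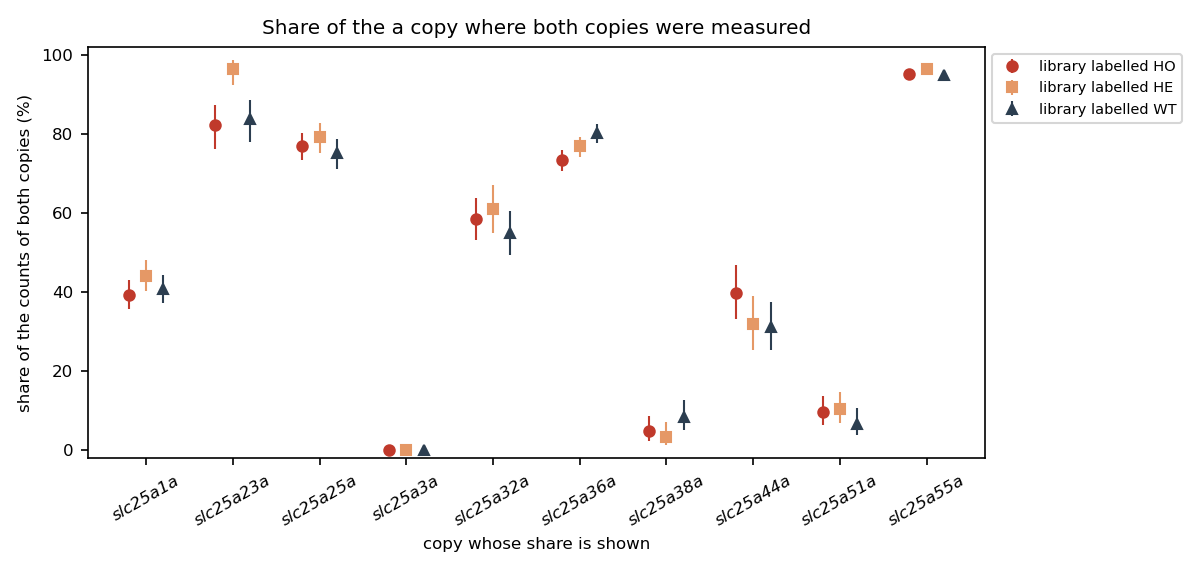
Share (%) of the counts of both copies that fell on the a copy for the 10 carrier numbers with both copies measured, in the libraries labelled HO, HE and WT, with 95% Clopper-Pearson intervals. The slc25a23 pair is apart in HE, at 96.4%, and the slc25a36 pair is lowest in HO, at 73.4%.

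Genes for the import route of these carriers were set beside them, and 1 listed symbol had no row. Of 18 rows for TOM subunits, small TIM chaperones and the carrier translocase, 15 were lower by sign in HO against WT, 6 of them beyond counting error and none higher, beside 11.6% of all genes lower, with a median log2 ratio of −0.14. For HO against HE 10 were lower beyond counting error, beside 15.2%, with a median of −0.20, and for HE against WT the median was 0.04. Of all genes averaging 100 counts or more, 13.4% were lower in HO against WT and 19.1% in HO against HE. Removal of the length trend gave 4 lower in HO against WT, or 22.2%, beside 10.9% of all genes, with a median of −0.11. The 4 were timm9, timm10, tomm6 and tomm40l, the last of these within counting error before the removal. In HO against HE the removal left 5 lower, or 27.8%, beside 13.3%, and made 1 higher, tomm70a, with a median of −0.09. For all genes averaging 100 counts or more, the shares lower after removal were 12.4% in HO against WT and 16.8% in HO against HE. The presequence import genes were listed apart, without TOM rows. Over 11 of them, with the trend kept, the medians were −0.17 for HO against WT and −0.12 for HO against HE. In HO against WT 3 were lower and 2 higher beyond counting error, beside 11.6% and 11.8% of all genes. In HO against HE 3 were lower and 1 higher, beside 15.2% and 13.8%. Among the carrier import genes tomm70a, the receptor for carrier precursors, had 1249, 1045 and 1209 counts in HO, HE and WT. With the trend kept it was within counting error in HO against both. Counts of tomm20b were 1140, 1135 and 1187. The calcium uniporter genes, which handle the ion that switches on several carriers, had a median of 0.13 for HO against WT over 7 genes. Beyond counting error 1 was higher and 1 lower, beside 11.8% and 11.6% of all genes.

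The slc25 genes that were within counting error in all 3 comparisons had means of up to 244 counts. By gene symbol, 50 of the 51 genes could be placed on a chromosome. Of these 50, 2 lie on the chromosome that carries setd2, slc25a32b and slc25a40, beside 4.47% of all genes placed. The 5 rows below the mean of 10 counts were slc25a13, slc25a15a, slc25a22b, slc25a24l and slc25a47b. The near absence of slc25a13, the citrin gene expressed in mammalian liver, at 1, 2 and 2 counts in HO, HE and WT, left slc25a12 as the one aspartate/glutamate carrier with a measurable level.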

How the data were processed

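Reads were counted per gene by the authors, who deposited whole-number counts without normalization and FPKM values for 3 libraries. The deposited FPKM equal count over exonic length and summed counts, within 0.005. The sources differ on how these were made. The paper names a stranded TruSeq kit, TopHat, the GRCz10 genome and Cufflinks, whereas the submitters' processing notes name HISAT2 2.0.2 and GRCz11 and the labels also name a VAHTS kit. The counting tool, annotation release and strand setting are not given in the sources used here, so reads of overlapping antisense genes may not be told apart. TMM factors from edgeR 4.0.16, run in R 4.3.3, were 1.004 for HO, 0.989 for HE and 1.007 for WT, and counts were turned to log2 CPM with a prior count of 2. Genes averaging under 10 counts were left out. Intervals of 95% for ratios and shares are exact binomial (Clopper-Pearson). A count of 0 was read against a floor of 3 counts. With 1 library per genotype there was no test and no p-value.

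Any slc25 gene could be named, and 1 is not reported here by name. Values in every library were required for the 8 highest by FPKM, the 5 highest and 5 lowest ratios per comparison among genes averaging 50 counts or more, genes past 0.5 in HO against WT beyond counting error, the iron and glycine carriers, slc25a46, and copies whose share moved. Other genes came from lists of import, transport and marker genes. The members and lists were chosen with earlier results of these data known. Roles are textbook background. All 51 identifiers were found in the table of gene names. Chromosomes came from the GRCz12tu annotation, and no positions are given because the assemblies differ. The alternatives tried were scaling by total counts, by size factors of DESeq2 1.42.0, the FPKM values plus 1 or plus 0.1 before logs, no filter, a mean of at least 100 counts, a prior count of 0.25, removal of the trend over exonic length in 20 bins, copies summed per carrier number, and a threshold of 1. The scripts were tested on simulated data. Python 3.11.15 with numpy 2.4.6, pandas 2.3.3, scipy 1.17.1 and matplotlib 3.10.9 was used.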

Additional observations from a re-analysis of the deposited data

How the results depend on the processing

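No paired analysis was possible because each genotype has 1 library and the result comes from no test. Leaving out a library was not possible for the same reason. Over the alternatives, the family median ran from −0.058 to −0.0125 for HO against WT, from 0.027 to 0.076 for HE against WT and from −0.122 to −0.046 for HO against HE, where the smallest value came with the trend over exonic length removed. The number of slc25 genes with a log2 ratio at or past 0.5, which was 5, 5 and 6 for HO against WT, HE against WT and HO against HE, was 1, 3 and 1 with FPKM and a pseudocount of 1, 0, 0 and 0 with a mean of at least 100 counts, and 1, 3 and 2 with a threshold of 1. A pseudocount shrinks ratios of low genes, and every gene past 0.5 averaged under 100 counts. With the length trend removed from each ratio and interval, an alternative chosen after seeing the data, genes lower beyond counting error numbered 8 in place of 5 for HE against WT and 8 in place of 16 for HO against HE. Each is 15.7% of the family, beside 12.2% and 13.3% of all genes after the same step. With copies of a carrier number summed, slc25a36b in HO against WT became −0.115 and slc25a55b in HO against HE became −0.0904, because the sum follows the larger a copy. Scaling by total counts took slc25a5 to 0.049 in HE against WT and to −0.068 in HO against HE, outside its counting intervals. Removal of the length trend took it to 0.027 and −0.011. Depth limits the rare genes, as below a mean of 50 counts the ratios beyond counting error were all past 1 in size.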

Other observations

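Values outside the comparisons are given without explanation. An upper-case row, SLC25A29, was not taken by the naming rule and had 8, 10 and 18 counts in HO, HE and WT. Below the mean of 10 counts, slc25a24l had 0, 5 and 6 counts in HO, HE and WT, and slc25a47b had 9, 0 and 4. A count of 0 allows up to 3 counts at this depth. Outside the slc25 rows, and chosen after their values were seen, 3 other mitochondrial transport genes were low in HE alone. They came from lists of 16 other membrane transport genes and 7 calcium uniporter genes. In HE against WT 2 and 1 of these were lower beyond counting error, beside 12.3% of all genes. In the same comparison 3 and 0 were higher, beside 13.1%. The uniporter pore gene mcu had 123, 76 and 132 counts in HO, HE and WT, the serine transporter gene sfxn1 had 126, 81 and 140, and the sodium/calcium exchanger gene slc8b1 had 178, 99 and 167.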
